A study of Mus musculus with 14 samples.

Results

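Ribosome biogenesis genes and the Myc genes were followed in mouse hematopoietic stem and progenitor cells that had kept or lost a histone label. The set held 40 genes: Myc and Mycn, and 38 genes whose products make ribosomes or feed growth. Each gene was taken as the brightest probe set that carried its symbol alone, by the mean over 14 arrays, and all 40 were found among the 18194 genes measured. By role, 5 of the 38 biogenesis genes belong to RNA polymerase I transcription, 7 to the small nucleolar ribonucleoproteins (snoRNPs), 11 to the small subunit, 9 to the large subunit, 3 encode abundant nucleolar proteins and 3 encode enzymes of polyamine and pyrimidine synthesis.

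The cells were Lin-Sca1+Kit+ (LSK) bone marrow cells of hCD34 x H2BGFP double transgenic mice on a C57BL/6 background, backcrossed for at least 10 generations. A tetracycline-off system, which the human CD34 promoter drives in stem and multipotent progenitor cells, made the H2B-GFP, so cells in which that promoter was silent were not labelled at the start. All groups carried both transgenes and all drank water with doxycycline (1 mg/ml) during 12 weeks, beginning at an age of 6 to 8 weeks, which stopped new H2B-GFP. Each division then dilutes the label, so GFP0 cells had diluted it most and GFP4 cells had kept it. There were 2 arrays of GFP0, 3 of GFP1, 3 of GFP2, 2 of GFP3 and 4 of GFP4, labelled as biological replicates. The labels do not say which animals gave them or whether animals were pooled, so a p-value here reflects only how much the sorted samples of a group differ, which may be technical. No unlabelled or untreated group was analysed here.

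Myc and its relative Mycn encode transcription factors that pair with Max and bind E-boxes, and their known targets include many genes of ribosome production. Ribosome biogenesis starts in the nucleolus, where RNA polymerase I makes a long precursor RNA. Small nucleolar RNAs with their proteins guide its modification, and assembly factors then cut, fold and load it into the small and the large subunit. In blood-forming stem cells Myc and Mycn are known to act redundantly in cell survival and growth, and quiescent stem cells are known for low protein synthesis.

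The question put to the data was whether Myc and Mycn moved with the biogenesis genes over the 5 GFP levels. Mycn was the only one of the 40 genes to pass the test, which 3.35% of all genes passed. By its brightest probe set it rose from the label-diluted to the label-retaining cells, with the highest mean in GFP3. Neither of its other probe sets passed, and GFP0 replicate 1 bears on the call, as given below. Myc did not pass, its measured slope lay within the range of the biogenesis genes, and no test compared it with them. None of the 38 biogenesis genes passed either, and most of their measured slopes lay on the other side of 0 from that of Mycn. Values are log2 expression, so a difference of 1 is a doubling of signal. The slope is the change in log2 expression per GFP level, from a line through the 5 group means, and a gene passed when its adjusted p was under 0.05 (limma, Benjamini-Hochberg over all genes).

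The arrays had medians between 6.96 and 7.18 and interquartile ranges from 2.09 in GFP0 replicate 1 to 2.73 in GFP2 replicate 3, and the correlation over all genes was 0.928 to 0.990 within groups and 0.911 to 0.990 between groups. Array probe signals have no read depth, and the number of arrays limits the precision. Of 7 LSK markers, 5 had a probe set with that symbol alone, and Cd34 (9.73 to 12.01) and Flt3 (10.18 to 11.70) were above the table median of 7.03 in every array, as were Kit (8.05 to 9.91) and Procr (7.41 to 11.54), while Slamf1 ran from 6.98 to 8.43. Among lineage markers Itgam lay between 4.92 and 5.60, below that median in every array, whereas Cd3e lay above it in every array (7.10 to 7.89), Cd8a reached 8.74 and Ms4a1 8.16. Markers of mature cells were not absent: the mean level of 7 measured mast cell and basophil genes ran from 8.58 to 8.71 in GFP0 and from 6.25 to 7.59 in GFP4, and 3 of the 7 passed with a lower slope, against 1.07% of all genes. The mean level of 12 neutrophil, monocyte and macrophage genes ran from 9.44 to 10.94 in GFP0 and from 7.50 to 9.32 in GFP4, with 1 of 12 passing. That of 9 B and plasma cell genes was 8.35 to 9.36 in GFP0 and 7.22 to 8.04 in GFP4, with 2 of 9 passing. Of 8 T and NK cell genes, 6 erythroblast genes and 9 endothelial and stromal genes, 1 in each list passed with a lower slope. In sorted bulk samples, fewer cells of a type and less RNA per cell cannot be told apart, and the part of these markers in the results below was not tested.

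Mycn, the only one of the 40 genes that passed, has a RefSeq promoter entry (GRCm38.p6). The 250 bases before its start, at chr12:12941837-12942086 on the minus strand, are shown because the 5′ part holds all of its matches to E2F-type motifs, in capitals, and no CACGTG was found in the 300-base window.
Mycn: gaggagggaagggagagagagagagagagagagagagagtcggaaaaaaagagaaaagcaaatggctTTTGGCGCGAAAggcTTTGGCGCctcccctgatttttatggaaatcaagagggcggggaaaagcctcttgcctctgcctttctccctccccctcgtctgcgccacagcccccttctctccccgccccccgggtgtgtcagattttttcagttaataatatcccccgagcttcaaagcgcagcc
The motifs searched were TTTCCCGC, TTTGGCGC, TTTCGCGC and TTTGCCGC on both strands. They matched 3 times, with TTTGGCGC starting 183 and 168 bases before the start and GCGCGAAA, the complement of TTTCGCGC, at 179, where it overlaps the first. In the RefSeq set of 32851 promoters, 2.26% hold at least 1 of these motifs. Of the 31 biogenesis genes with an entry 4 do (12.9%), a share counted by gene and not by promoter. A match is a description of the letters and not evidence of binding.

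Mycn encodes N-Myc. In GFP0 its log2 expression was 7.51 and 8.47, in GFP1 8.24, 7.50 and 8.78, and in GFP2 8.88, 9.77 and 9.68. In GFP3 it was 10.24 and 10.08, and in GFP4 it was 9.49, 9.81, 9.97 and 9.46. All 4 GFP4 arrays and both GFP3 arrays were above all 5 arrays of GFP0 and GFP1, and GFP2 lay between them with some overlap with GFP4. The group means were 7.99 ± 0.68 in GFP0 (SD, n = 2), 8.18 ± 0.64 in GFP1 (n = 3), 9.44 ± 0.49 in GFP2 (n = 3), 10.16 ± 0.11 in GFP3 (n = 2) and 9.68 ± 0.25 in GFP4 (n = 4). Neighbours in this order that overlapped were GFP0 with GFP1 and GFP2 with GFP4, and GFP3 lay above every other array.

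The slope of Mycn was 0.54 ± 0.08 (SE) per level, with a 95% interval of 0.36 to 0.71 and an adjusted p of 0.00405 (limma). Across all genes 3.35% passed the slope test, 2.28% with a positive slope, and the slope of Mycn was matched or exceeded by 63 of 18194 genes (0.346%). GFP4 exceeded GFP0 by 1.69 ± 0.36 (adjusted p = 0.0376, limma, where 1.68% of all genes passed and 1.25% of all genes passed with GFP4 higher). The steps between neighbouring levels were 0.19 from GFP0 to GFP1, 1.27 from GFP1 to GFP2, 0.72 from GFP2 to GFP3 and -0.48 from GFP3 to GFP4. Mycn also passed the test for any difference between levels (adjusted p = 0.0389, limma), which 0.698% of genes passed. It missed the test for a departure from a straight line, which no gene passed after adjustment (limma, unadjusted p = 0.030 for Mycn, and under 0.05 for 7.01% of genes). GFP0 replicate 1 bears on these calls: without it the slope of Mycn was 0.44 and its adjusted p 0.0519 (limma), and GFP4 exceeded GFP0 by 1.21 (adjusted p = 0.285). The GFP4 against GFP0 call was also lost without GFP3 replicate 1 or 2 or GFP4 replicate 2, 3 or 4, with adjusted p from 0.0510 upward (limma). The any-difference call was lost without GFP0 replicate 1, GFP1 replicate 1 or 2, GFP2 replicate 2 or 3, either GFP3 array, or GFP4 replicate 1, 3 or 4.

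The Mycn result rests on 1 of 3 probe sets of that symbol. The second by brightness stayed between 7.46 and 8.15 in all arrays and its slope was -0.02, and the dimmest lay between 5.82 and 7.32 with a slope of 0.11 (adjusted p over all probe sets 0.551, limma). Neither passed. The mean over the 3 probe sets still passed, with a slope of 0.21.

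Myc encodes c-Myc and has 1 probe set. In GFP0 its log2 expression was 8.54 and 9.25, in GFP1 9.22, 10.12 and 8.92, and in GFP2 8.06, 9.23 and 9.02. In GFP3 it was 9.51 and 9.01, and in GFP4 it was 8.61, 9.03, 8.73 and 8.26. Every group overlapped with every other. The highest array was GFP1 replicate 2 and the lowest GFP2 replicate 1. Group means were 8.89 ± 0.50 in GFP0 (SD, n = 2), 9.42 ± 0.62 in GFP1 (n = 3), 8.77 ± 0.62 in GFP2 (n = 3), 9.26 ± 0.36 in GFP3 (n = 2) and 8.66 ± 0.32 in GFP4 (n = 4). The slope was -0.06 ± 0.09 (SE), with a 95% interval of -0.25 to 0.13 (adjusted p = 0.778, limma). GFP4 minus GFP0 was -0.23 ± 0.38, with an interval of -1.06 to 0.60. The interval leaves room for a change of either sign, and the sign of the slope turned without GFP0 replicate 2.

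The slopes of the 2 Myc genes differed. Within each array Mycn minus Myc was taken, so that only changes and not levels of different probe sets were compared, and its slope was 0.60 per level (two-sided permutation test over 14 arrays with 100000 resamples, p = 0.00215). Without GFP0 replicate 1 the difference was 0.57 and p = 0.0517 (permutation). With the dimmest Mycn probe set in place of the brightest it was 0.18 (permutation p = 0.164), and with the second by brightness it was 0.039 (permutation p = 0.745), so the difference is that of the brightest Mycn probe set.

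**Figure D1:**
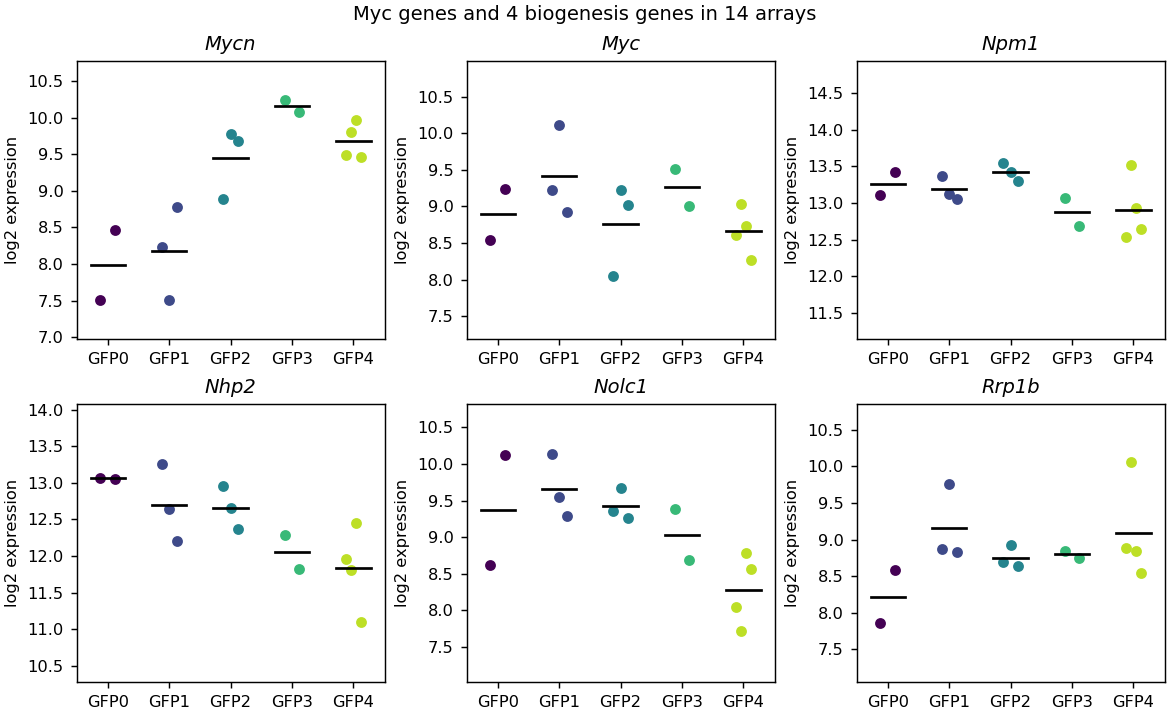
Log2 expression of Mycn, Myc, Npm1, Nhp2, Nolc1 and Rrp1b (one panel each, log2 axis of equal span) in the 14 arrays by GFP level, with a point per array and a bar at the group mean. Mycn lies between 7.50 and 8.78 in GFP0 and GFP1 and between 9.46 and 10.24 in GFP3 and GFP4, whereas the groups of Myc overlap throughout.

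The biogenesis genes as a group lay on the other side of 0 by their slopes. The median slope of the 38 was -0.11 per level against -0.01 for all genes, with a range of -0.31 to 0.14, and 31 of 38 (81.6%) were below 0 against 54.8% of all genes. None passed the slope test, the GFP4 against GFP0 test or the test for any difference (limma, threshold 0.05). Of all genes 3.35%, 1.68% and 0.698% passed these tests. At an unadjusted p under 0.05 the slope was below 0 for 9 of the 38 against 7.00% of all genes, and above 0 for 0 against 9.71%. The median difference between GFP4 and GFP0 was -0.50, against -0.04 for all genes, and it was -0.76 without GFP0 replicate 1 and -0.22 without GFP0 replicate 2. All 39 other members had a slope interval that lay wholly below the lower bound of that of Mycn.

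The group with the lowest mean was GFP4 in 23 of the 38 genes (60.5%, against 16.8% of all genes), and it had the highest mean in 0 of 38 (18.9% of all genes). The highest mean fell in GFP0 for 12, in GFP1 for 11, in GFP2 for 13 and in GFP3 for 2 (15.4% of all genes). Median steps were -0.03 from GFP0 to GFP1 and 0.07 from GFP1 to GFP2, then -0.25 from GFP2 to GFP3 and -0.27 from GFP3 to GFP4, where the median of all genes was 0.05. All 4 GFP4 arrays were below both GFP0 arrays for 8 genes (7.75% of all genes), namely Nhp2, Pno1, Rrp12, Utp15, Gnl3, Dkc1, Rrp9 and Odc1, and above them for 0 (10.4% of all genes). These counts describe the arrays and carry no test, and the genes were measured in the same arrays. They use the brightest probe sets. Among the 8, the other probe set of Utp15 (mean 8.25 against 9.31) had a slope of 0.08, while those of Nhp2, Dkc1 and Odc1 had slopes below 0.

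**Figure D2:**
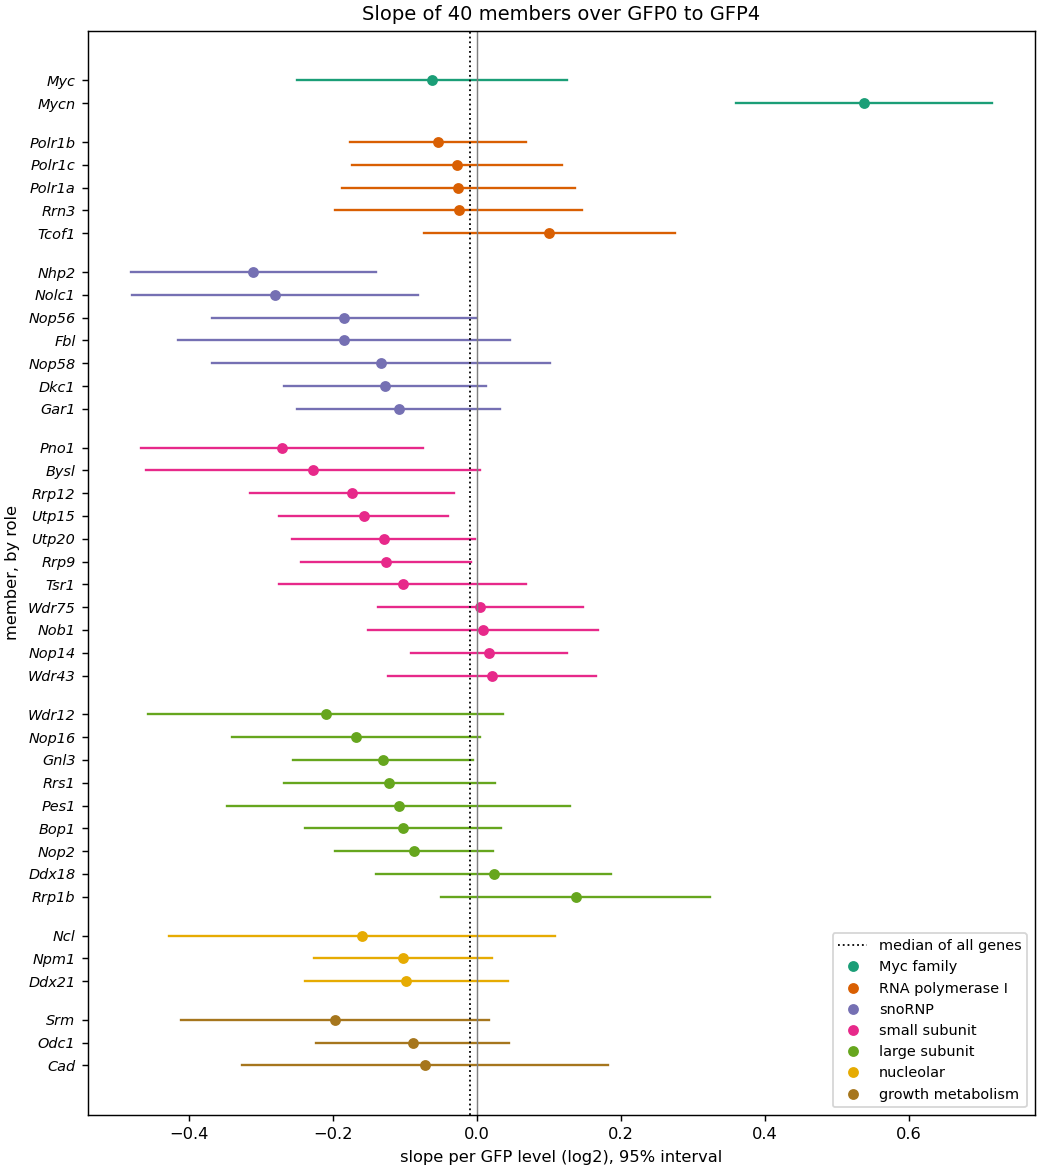
Slope per GFP level (log2) of each of the 40 genes with its 95% interval (limma), ordered within roles, with a dotted line at the median of all genes. The interval of Mycn (0.36 to 0.71) lies above those of all other genes, and most biogenesis genes lie left of 0.

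The snoRNP proteins carried the steepest measured slopes. All 7 were below 0 (54.8% of all genes), with a median of -0.18. At an unadjusted p under 0.05 the slope was below 0 for 3 (7.00% of all genes), but 0 passed after adjustment (3.35% of all genes). Nhp2, a core protein of the H/ACA particles that guide pseudouridylation, had log2 expression of 13.07 and 13.05 in GFP0, then 13.26, 12.64 and 12.20 in GFP1 and 12.96, 12.66 and 12.37 in GFP2. It was 12.29 and 11.83 in GFP3, and 11.97, 11.81, 12.45 and 11.10 in GFP4. Every GFP3 and GFP4 array was below both GFP0 arrays, while GFP1 overlapped with GFP3 and GFP4. GFP2 overlapped with GFP4 and lay above both GFP3 arrays. The slope was -0.31 ± 0.08 (SE), with a 95% interval of -0.48 to -0.14 (adjusted p = 0.0501, limma), just outside the threshold. GFP4 minus GFP0 was -1.23 ± 0.35 (adjusted p = 0.0999, limma). It passed without GFP1 replicate 3 and without GFP4 replicate 3.

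Nolc1, the nucleolar phosphoprotein that binds snoRNPs, was 8.62 and 10.12 in GFP0, 10.13, 9.55 and 9.28 in GFP1, 9.36, 9.67 and 9.26 in GFP2, 9.38 and 8.69 in GFP3, and 8.05, 7.71, 8.79 and 8.57 in GFP4. The GFP4 arrays were the lowest except that GFP4 replicate 3 exceeded GFP3 replicate 2 and the 8.62 of GFP0. Its slope was -0.28 ± 0.09 (adjusted p = 0.129, limma). The other probe sets of Nolc1, with means of 7.78 and 6.39, had slopes of -0.06 and 0.04. Nop56 and Fbl belong to the box C/D particles that guide ribose methylation, where Fbl is the methyltransferase. Their slopes were -0.18 ± 0.08 (adjusted p = 0.294) and -0.18 ± 0.11 (adjusted p = 0.426, limma). The remaining members, Nop58, Dkc1 (the pseudouridine synthase) and Gar1, lay between -0.13 and -0.11.

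Small-subunit assembly had 7 of 11 genes below 0 (63.6%, against 54.8% of all genes) and a median slope of -0.13. At an unadjusted p under 0.05 the slope was below 0 for 5 of the 11, against 7.00% of all genes. Pno1, which acts late in small-subunit assembly, had log2 expression of 8.57 and 9.26 in GFP0, 9.10, 7.58 and 8.19 in GFP1, and 8.14, 9.41 and 8.39 in GFP2. It was 7.98 and 7.98 in GFP3, and 7.57, 7.73, 8.02 and 7.56 in GFP4. GFP4 was below both GFP0 arrays, but GFP1 replicate 2 was as low as GFP4. The slope of Pno1 was -0.27 ± 0.09 (adjusted p = 0.137, limma) and its GFP4 minus GFP0 difference was -1.19. Bysl, another late assembly factor, had a slope of -0.23 ± 0.11 (adjusted p = 0.310), with GFP4 arrays from 7.50 to 8.87 and GFP0 arrays at 8.38 and 9.36. Wdr43, an early factor of the processome, had a slope of 0.02 (adjusted p = 0.906, limma), the highest of the 11, and its sign turned under several settings. The other probe set of Wdr43, with a mean of 10.02 against 10.45, had a slope of -0.15. Wdr75, Nob1, Nop14 and Wdr43 were the 4 members above 0, at 0.00 to 0.02.

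Large-subunit assembly had 7 of 9 genes below 0 (77.8%, against 54.8% of all genes) with a median of -0.11. At an unadjusted p under 0.05 the slope was below 0 for 1 of the 9, against 7.00% of all genes. Wdr12, a member of the complex with Pes1 and Bop1 that processes the large-subunit RNA, had a slope of -0.21 ± 0.11 (adjusted p = 0.389, limma), with GFP4 at 8.87, 10.47, 9.38 and 9.52 around a mean of 9.56, and a GFP0 mean of 10.43. Its partners Pes1 and Bop1 had slopes of -0.11 and -0.10. By their brightest probe sets the partners lay on the same side of 0, and none passed. The other probe sets of Wdr12, with means of 8.94 and 3.66, had slopes of 0.07 and -0.008. Those of Pes1 and Bop1 had -0.13 and -0.02. Rrp1b had the highest slope of all biogenesis genes, 0.14 ± 0.09 (95% interval -0.05 to 0.32, adjusted p = 0.474), and a GFP4 minus GFP0 difference of 0.87 (adjusted p = 0.315). Its arrays were 7.86 and 8.58 in GFP0, 8.87, 9.77 and 8.83 in GFP1, 8.69, 8.92 and 8.65 in GFP2, 8.84 and 8.75 in GFP3, and 8.89, 10.06, 8.85 and 8.55 in GFP4. GFP4 replicate 2 was the highest array, and the remaining 3 lay between 8.55 and 8.89, within the range of the other groups. The other probe sets of Rrp1b, with means of 8.55 and 8.25 against 8.86, had slopes of -0.003 and -0.11. Ddx18, a helicase, had a slope of 0.02 (adjusted p = 0.908).

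RNA polymerase I genes lay nearest to 0, with a median slope of -0.03 and 4 of 5 below 0 (54.8% of all genes). An unadjusted p under 0.05 was found for 0 of the 5 (7.00% of all genes lower and 9.71% higher). Tcof1, whose product treacle acts in ribosomal DNA transcription, had a slope of 0.10 ± 0.08 (adjusted p = 0.592, limma), and Polr1a, Polr1b, Polr1c and Rrn3 lay between -0.05 and -0.02. All 3 nucleolar genes were below 0 (54.8% of all genes), with a median of -0.10. Npm1, the abundant nucleolar chaperone nucleophosmin, was 13.11 and 13.42 in GFP0, 13.38, 13.13 and 13.06 in GFP1, and 13.54, 13.42 and 13.31 in GFP2. It was 13.07 and 12.69 in GFP3, and 12.54, 13.52, 12.93 and 12.64 in GFP4. One GFP4 array was among the highest and the other 3 were below every array of GFP0 to GFP2. The slope of Npm1 was -0.10 ± 0.06 (adjusted p = 0.409, limma). Of the growth enzymes, Srm, the spermidine synthase, had a slope of -0.20 ± 0.10 (adjusted p = 0.347, limma), and Odc1 and Cad had -0.09 and -0.07. For 0 of the 3 nucleolar genes and 0 of the 3 growth enzymes was the unadjusted p under 0.05 (7.00% of all genes lower and 9.71% higher).

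**Figure D3:**
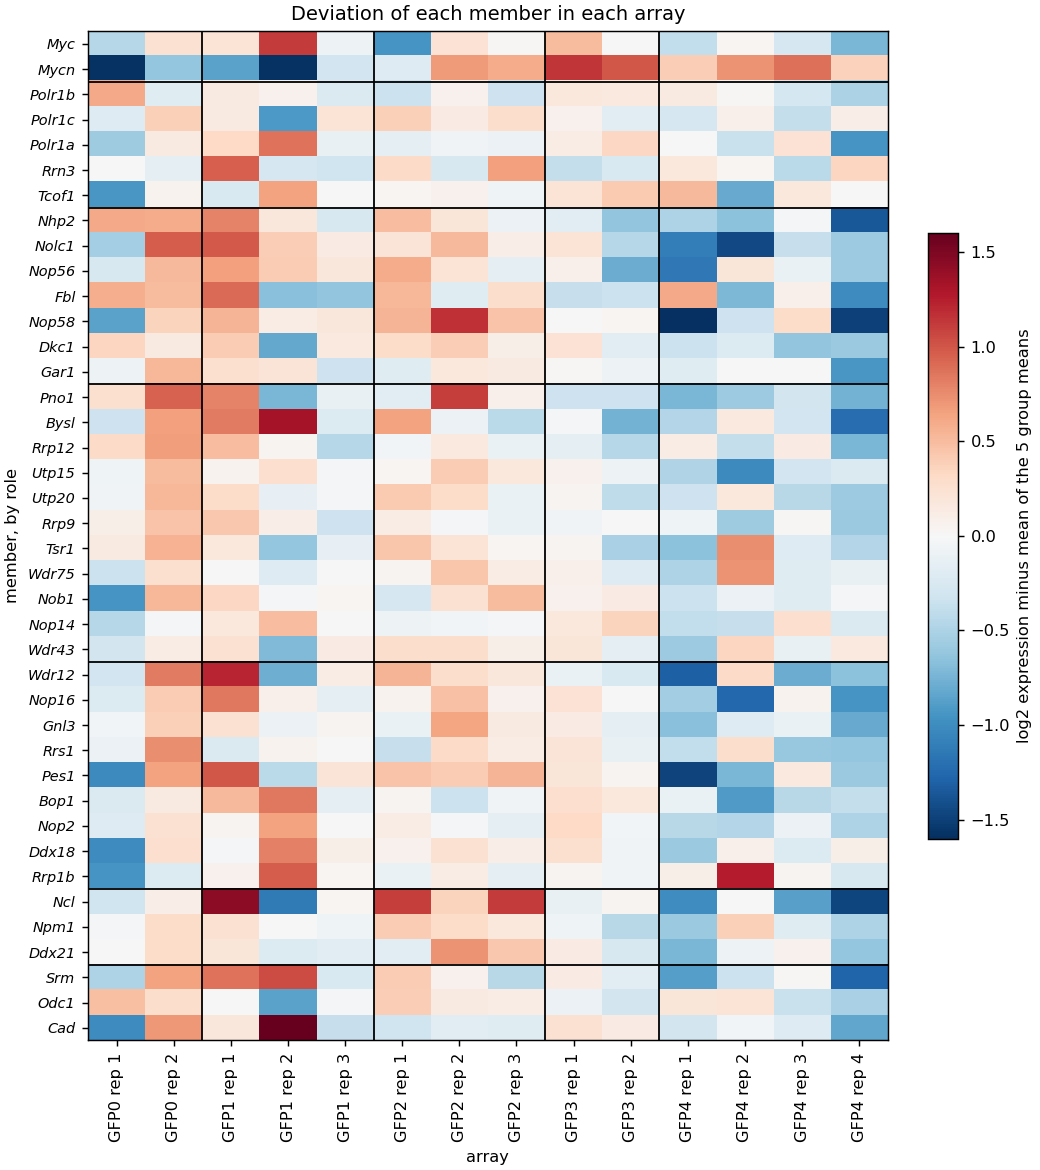
Log2 expression of each of the 40 genes in each array as the deviation from the mean of its 5 group means, with genes ordered by role and arrays by GFP level, where the colour scale gives the deviation. Mycn is negative in every GFP0 and GFP1 array and positive in every GFP3 and GFP4 array, while negative values of the biogenesis genes are most frequent in GFP4.

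Known E-box sites for Myc proteins were looked for in the promoters of the biogenesis genes, as windows of 300 bases with 250 before the start and 50 after. RefSeq (GRCm38.p6) entries matched 32 of the 40 genes, among them 31 of the 38 biogenesis genes. Of these 31, 7 hold the palindromic E-box CACGTG (22.6%), against 7.15% of all 32851 promoters of the same length. The 30-base stretches around it are shown because E-boxes are the sites to which Myc proteins are known to bind, with the E-box in capitals.
Rrn3 at chr16:13780472-13780501 (+): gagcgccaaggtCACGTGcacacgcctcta
Rrn3 at chr16:13780639-13780668 (+): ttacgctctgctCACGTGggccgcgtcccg
Nop2 at chr6:125131811-125131840 (+): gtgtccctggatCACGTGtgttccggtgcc
Pes1 at chr11:3963965-3963994 (+): ccctaggcagggCACGTGcgggaggaagta
Wdr43 at chr17:71616220-71616249 (+): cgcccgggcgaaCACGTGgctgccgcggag
Tsr1 at chr11:74898092-74898121 (+): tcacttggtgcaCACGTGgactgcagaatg
Utp20 at chr10:88826765-88826794 (-): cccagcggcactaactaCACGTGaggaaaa
Pno1 at chr11:17211540-17211569 (-): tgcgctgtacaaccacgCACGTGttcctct
The E-boxes of Rrn3 begin 215 and 48 bases before the start, that of Nop2 60 before, and those of Pes1, Wdr43, Tsr1, Utp20 and Pno1 3, 18, 25, 38 and 38 bases after it. The median slope of the 7 genes with an E-box was -0.10, with a range of -0.27 to 0.02, and that of the 24 without was -0.12, with a range of -0.31 to 0.14. The ranges overlap over most of their length. This is a description, and no test was made of it.

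By array, the biogenesis genes did not all move with the level. The mean over the 38 genes of the deviation from each gene's mean over the groups was -0.22 and 0.39 in GFP0, 0.43, 0.07 and -0.07 in GFP1, and 0.17, 0.24 and 0.09 in GFP2. It was 0.06 and -0.15 in GFP3, and -0.45, -0.17, -0.17 and -0.58 in GFP4. All 4 GFP4 arrays were negative, but GFP0 replicate 1 was lower than GFP4 replicates 2 and 3, so the GFP0 and GFP4 arrays overlap, and the 2 GFP0 arrays differ widely (0.08 ± 0.43, SD, n = 2). The median slope of the 38 genes, -0.11 with all arrays, was -0.17 without GFP0 replicate 1 and -0.069 without GFP0 replicate 2. In the same arrays Mycn deviated by -1.58 and -0.62 in GFP0 and by 0.40, 0.72, 0.88 and 0.37 in GFP4. Myc deviated by -0.46 and 0.24 in GFP0 and by -0.39, 0.03, -0.27 and -0.74 in GFP4.

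Signs of RNA quality differed between the arrays. The 3 prime minus 5 prime difference of the Actb control probe sets, which grows as RNA is degraded or amplified short, was highest in GFP4 replicate 4 (5.05), the array with the lowest biogenesis mean (-0.58), and lowest in GFP1 replicate 1 (2.99), the array with the highest (0.43). GFP4 replicate 1 had the next highest value (4.88) and the next lowest biogenesis mean (-0.45). The GFP2 arrays had 3.57 to 3.93 with biogenesis means of 0.09 to 0.24. Not every array kept that order: GFP0 replicate 2 had 4.51 with a biogenesis mean of 0.39, and GFP1 replicate 3 had 4.72 with -0.07. The Gapdh difference was highest in GFP3 replicate 1 (6.58), where the biogenesis mean was 0.06. It was next highest in GFP4 replicate 4 (6.57), where the biogenesis mean was -0.58. Whether RNA quality caused the biogenesis differences was not tested. The group means of Actb were 4.45 in GFP0, 3.96 in GFP1, 3.71 in GFP2, 4.10 in GFP3 and 4.64 in GFP4. That of Gapdh was 5.15, 5.53, 5.63, 6.34 and 5.80 in the same order. With both as covariates the median slope of the biogenesis genes was -0.06, and the slope of Mycn was 0.52 (adjusted p = 0.0544, limma).

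**Figure D4:**
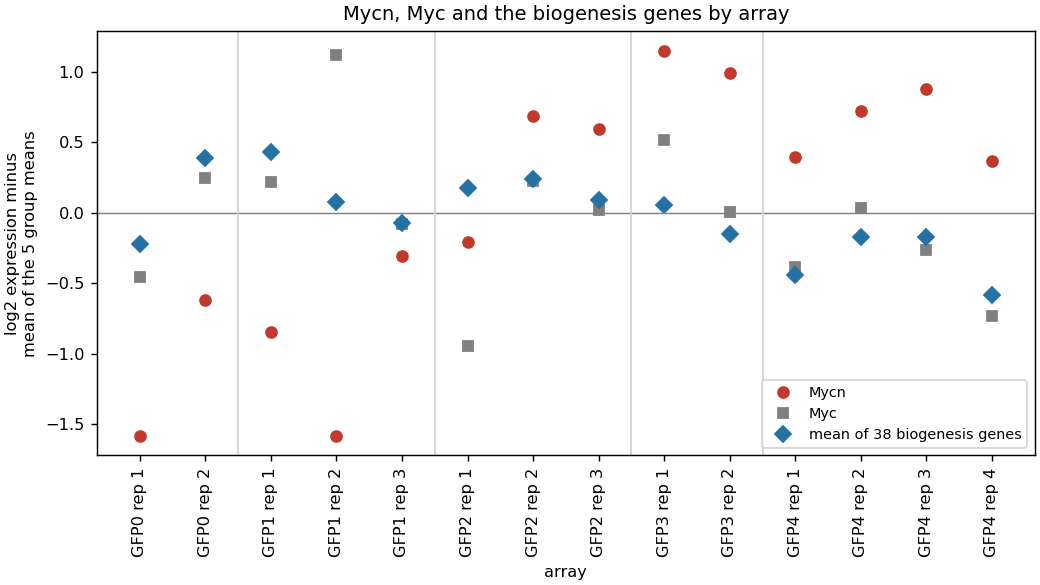
Deviation of Mycn, of Myc and of the mean of the 38 biogenesis genes in each of the 14 arrays (log2 expression minus the mean of the 5 group means), with grey lines between GFP levels. Mycn runs from -1.58 in a GFP0 array and -1.59 in a GFP1 array to 1.15 in a GFP3 array, while the biogenesis mean is lowest in 2 GFP4 arrays at -0.58 and -0.45.

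The other genes of these pathways were counted by list. In the Myc network 22 of 22 genes were measured, with a median slope of 0.06. Mycbp, which binds the Myc amino terminus, fell by 0.31 per level (SE 0.06, adjusted p = 0.0209, limma). It was the 1 gene of the 22 that passed with a lower slope (1.07% of all genes), and 0 passed with a higher one (2.28%). By their measured slopes 7 of the 22 were below 0 (31.8%, against 54.8% of all genes). At an unadjusted p under 0.05, 4 were above 0 (9.71% of all genes) and 2 below (7.00%). Of 16 other RNA polymerase I genes, 43 other large-subunit genes and 11 other snoRNP genes 0 passed in either direction (3.35% of all genes). Their median slopes were -0.04, -0.03 and -0.03. Of 44 other small-subunit genes 1 passed with a lower slope (1.07% of all genes). This was Utp18, a processome protein, which fell by 0.31 per level (SE 0.07, adjusted p = 0.0342, limma). By measured slope 36 of the 44 were below 0 (81.8%, against 54.8% of all genes). Of 20 polyamine and nucleotide genes 1 passed with a lower slope (1.07% of all genes). It was Gart, an enzyme of purine synthesis, which fell by 0.35 per level (adjusted p = 0.0367, limma). These calls of Mycbp, Utp18 and Gart were each lost without GFP0 replicate 1 or 2, at adjusted p from 0.0603 to 0.149 (limma), and also without GFP3 replicate 2. Those of Utp18 and Gart were lost without GFP1 replicate 1 and GFP4 replicate 4 too, that of Utp18 without GFP3 replicate 1, and that of Gart without GFP2 replicate 1 or 2 or GFP4 replicate 1 or 3.

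Of 80 ribosomal protein genes listed 46 were measured, and 0 of the 46 passed (3.35% of all genes), with a median slope of 0.01. The mean level of the 46 was 13.25 to 13.29 in every group, toward the upper end of the table (15.1). Of 24 proliferation genes 5 passed with a lower slope (1.07% of all genes) and 0 with a higher one (2.28%), all 24 were below 0 (54.8% of all genes), and the median was -0.28. Gins1, a part of the replicative helicase, fell by 0.55 per level (adjusted p = 0.00328, limma), and Ccne2, cyclin E2, by 0.46 (adjusted p = 0.0197, limma). The signal of Ccne2 was low, with group means from 4.28 in GFP4 to 6.70 in GFP2, below the table median of 7.03. The mean level of the 24 was 10.33 in GFP0, 10.40 in GFP1, 10.50 in GFP2, 9.90 in GFP3 and 9.18 in GFP4, highest in GFP2 and lowest in GFP4. The call of Ccne2 was lost without GFP0 replicate 1 or 2 or GFP3 replicate 2, and that of Gins1 passed without each of the 14 arrays in turn.

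**Figure D5:**
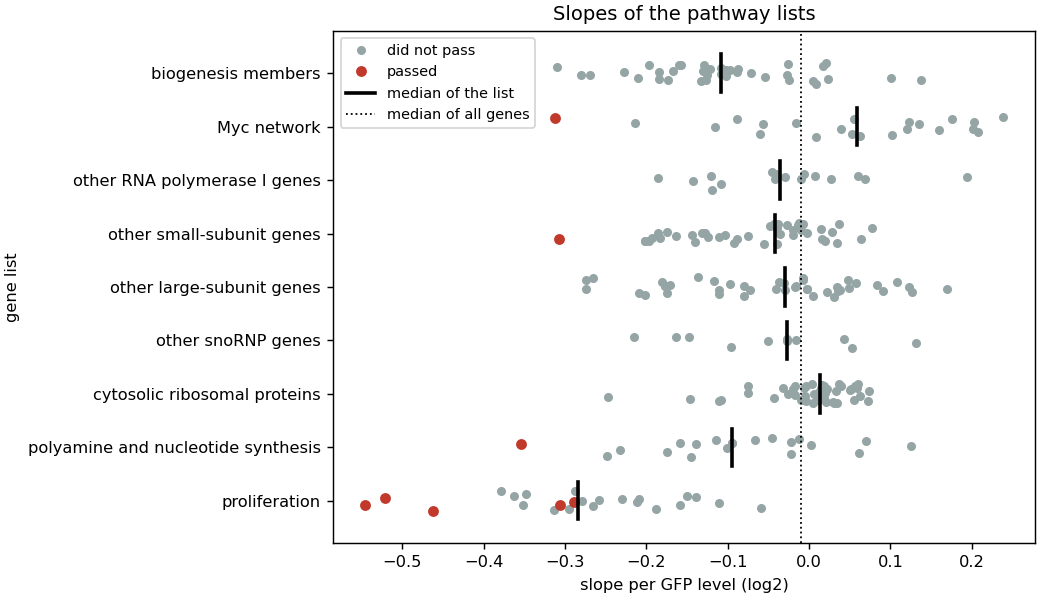
Slope per GFP level (log2) of every measured gene of the biogenesis set and of 8 pathway lists, one point per gene (red where it passed, adjusted p under 0.05, limma), with a bar at the list median and a dotted line at the median of all genes. Of the biogenesis set 0 of 38 passed and of the proliferation list 5 of 24, against 3.35% of all genes. The proliferation list has the lowest median, -0.28.

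Other probe sets of the members were looked at for agreement with the brightest. The 40 genes have 81 probe sets with their symbol alone, 14 genes with 1 and 26 with more. Of the 41 others, 30 had a slope of the same sign as the brightest and 0 passed. For Ncl, the nucleolin gene, the slope of the brightest was -0.16 and those of the other 4 ran from -0.10 to 0.08. The brightest probe set ended in _s_at for 8 members (Nhp2, Fbl, Nop56, Gar1, Tsr1, Wdr43, Polr1c and Cad) and in _x_at for 2 (Rrs1 and Odc1). Both endings mark probe sets able to bind several transcripts. The steepest biogenesis slope, that of Nhp2, thus comes from such a probe set.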

How the data were processed

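Expression was measured on 14 Affymetrix arrays with amplified, biotin-labelled RNA, per the labels' protocols. The deposited values are log2 expression per probe set, which the authors made with GCOS, RMA and affy, per the submitters' processing notes, with no versions. RMA corrects background, makes the distributions of arrays alike and summarises probes, so a shift of all genes would not show. Versions and detection calls were not given in the sources used here. Of 45101 probe sets, 34958 name 1 symbol in the platform annotation, 932 several and 9211 none, and the brightest per symbol was kept (18194 genes); 34754 matched a RefSeq gene identifier and 0 symbols changed.

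limma 3.58.1 (R 4.3.3) fitted 5 group means over the 14 arrays and every gene, with 9 residual and 3.99 prior degrees of freedom. Slopes give each level equal weight. All tests are two-sided. P-values were adjusted by Benjamini-Hochberg across the 18194 genes, with 0.05 as threshold. The fit was tested on simulated data with 200 changed genes. Named were Myc, Mycn, members that passed, the 8 lowest and 4 highest biogenesis slopes, Npm1 for its role, and up to 2 genes each way per pathway list; other members are given by range or as examples. Members and lists were chosen with earlier results of these data known. Figures were drawn with matplotlib 3.10.9 (Python 3.11.15).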

Additional observations from a re-analysis of the deposited data

Results flagged for a closer look

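Nop2, which encodes a methyltransferase of the large-subunit RNA, had a log2 expression of 8.76 in GFP4 replicate 3, and the other GFP4 arrays lay between 8.37 and 8.42. The gap to the nearest of them was 0.867 of the group's range, above Dixon's 95% critical value for 4 samples. It was the only one of 40 genes marked in this way, and chance marks about 1 in 20 groups.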

How the results depend on the processing

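Few arrays per level limit every slope. Mycn kept its sign under all 26 alternatives and passed in 22, with 0.21 from the mean over probe sets as the lowest slope. It missed without the GFP0 and GFP4 arrays numbered 1 (0.45), also without GFP4 replicate 2 (0.45), with the Actb and Gapdh covariates (0.52), and without GFP0 replicate 1 (0.44). Leaving out single arrays gave 0.44 to 0.63 for Mycn, -0.13 to 0.0076 for Myc (0.090 with the covariates) and 0.53 to 0.66 for Mycn minus Myc, which was 0.58 and 0.61 without the numbered arrays (permutation p = 0.0509 and 0.0506), and 0.18 and 0.039 with the other Mycn probe sets. Members passing for the slope numbered 2, with Nhp2, under the dim filter, the trend and robust model and the regression (adjusted p 0.0401, 0.0432 and 0.0222, limma), 0 without the numbered arrays and with the covariates, and 0 to 2 without single arrays. Members passing for GFP4 against GFP0 numbered 0 under centring, the mean over probe sets, quality weights, the replicate block, the numbered arrays left out, the covariates, and GFP0 and GFP4 alone. For any difference they numbered 0 under centring, the mean over probe sets, every probe set, the block, the numbered arrays left out and the covariates. Both numbered 0 to 1 without single arrays. The biogenesis median was -0.17 in both fits without the numbered arrays, -0.061 with the covariates and -0.17 to -0.069 without single arrays. Wdr43 turned to -0.064 (mean over probe sets), -0.0058 (numbered arrays and GFP4 replicate 2 left out) and -0.027 (covariates), and was -0.020 to 0.062 without single arrays. Ddx18 turned to -0.075 and -0.085 in the numbered fits and -0.017 in the regression, and was -0.10 to 0.15 without single arrays. Tcof1 turned to -0.035 and Rrp1b to -0.013 without numbered arrays. The cause was not tested. Whether replicate numbers pair the samples could not be told from deviations from the group means. The 23 same-number pairs had correlations of -0.26 to 0.58 (median 0.046), and the 54 other pairs -0.63 to 0.48 (median -0.046). Where a group has 2 arrays, their deviations are equal and opposite, so part of these values was fixed in advance. With the replicate block 337 genes passed for the slope, Mycn among them, and 67 for GFP4 against GFP0. Of all genes 609 passed for the slope, and 90 (weights) to 798 (every probe set) in alternatives. For GFP4 against GFP0 306 passed, and 2 (weights) to 363 in alternatives. For any difference 127 passed, and 11 (covariates) to 335 (weights).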

Other observations

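Single arrays held many of the extremes of the 40 genes. GFP4 replicate 4 held the lowest value of 15 members, against 5.08% of all genes, and GFP4 replicate 1 that of 8, against 9.72%. GFP0 replicate 1 held the highest value of 2 members and the lowest of 6, against 23.3% and 14.3% of all genes. GFP1 replicate 1 held the highest value of 10 members, against 8.71%. GFP1 replicate 2 also held the highest value of 10, among them Myc (10.12), Cad (10.67), Srm (12.46) and Bysl (10.04), and the lowest value of 5, which were Mycn (7.50), Polr1c (11.04), Dkc1 (9.87), Odc1 (11.18) and Wdr43 (9.74). Of all genes 10.2% were highest and 9.55% lowest in that array. These members were singled out after their values were seen.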
